A study of Mus musculus with 16 samples.

Results

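The genes described here are the heat shock chaperones and their main transcription factor: Hsf1, Hsph1, Hspa1a, Hspa1b, Hspa8, Hsp90aa1, Hsp90ab1, Dnajb1, Hspd1 and Hspe1. Of these 10 genes, 9 had a probe that could be named, with 14 probes in all, out of 20660 genes named on the array and 14675 tested. Hspa1b had no named probe, so no level is given for it. All 9 genes passed the filter on dim probes, which asked for a clear signal on 2 or more arrays, but Hspa1a passed it through 4 of 16 arrays only. The genes were selected on measured values, the levels of Hsph1 in the Cre and IKK2 knockout groups: they were chosen because Hsph1 moved in opposite directions with nephritis in the IKK2 knockout and in the Cre controls. The nephritis responses of these genes in Cre and IKK2 knockout cells, and the Hsph1 values behind them, are therefore given as a description. Where a count of calls stands beside them, nothing is read from it.

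RNA came from splenic CD4+ T cells of male mice aged 8 to 10 weeks, enriched with a kit and then sorted by flow cytometry, with 1 Agilent 1-colour array per sample. Every mouse carried CD4-Cre, a Cre recombinase under the CD4 promoter, alone (the Cre controls) or together with floxed alleles of IKK2 (IKK2fl/fl) or of NEMO (NEMOfl/fl). Within each genotype one group had no inflammation, and the other received 2.5 mg of nephrotoxic sheep serum for each gram of body weight and was harvested on day 10. The serum carries antibodies against the glomerulus and causes an immune-driven kidney disease. Each Cre and IKK2 knockout group had 3 arrays and each NEMO knockout group had 2. Nothing in the labels states that each array of a group stands for its own animal. The p-values therefore cover the spread from sample to sample, which could be technical.

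Heat shock proteins keep other proteins folded. HSP70 and its constitutive relative HSC70 bind unfolded stretches of protein, J-domain proteins such as DNAJB1 deliver clients and start ATP hydrolysis, and HSP110 (Hsph1) releases the nucleotide so that the cycle can begin again. HSP90 acts later, on kinases and receptors that are close to their final fold, and the IkB kinase complex is among its clients in other cells. HSP60 (Hspd1) and its lid HSP10 (Hspe1) form the chamber that folds proteins inside mitochondria. HSF1 is held inactive by chaperones and binds, once released by stress, to heat shock elements, which are head-to-head and tail-to-tail repeats of the unit GAA.

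RefSeq promoters (build GRCm38.p6) were at hand for 6 of the 10 genes, and the 250 bases upstream of each start were searched on both strands for 2 paired units, GAANNTTC and TTCNNGAA. Both motifs read the same on either strand, and a pair can share a unit with the next pair. The sites found are listed for Hsph1, the gene on which the pattern rests, for the inducible HSP70 genes and for the mitochondrial pair. Capitals mark the GAA and TTC units of the motifs.
Hsph1: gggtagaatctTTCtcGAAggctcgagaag
Hspa1a and Hspa1b: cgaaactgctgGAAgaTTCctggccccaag
Hspe1: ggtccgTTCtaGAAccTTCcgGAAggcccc
Hspd1: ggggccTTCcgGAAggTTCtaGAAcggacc
The Hsph1 site lies on the minus strand of chr5:149636351-149636380, between 44 and 15 bases upstream of the nearer of its annotated starts. The Hspa1a site is on the minus strand of chr17:34972242-34972271, between 115 and 86 bases upstream. Hspa1b carries the same 30 letters at chr17:34959324-34959353, and the 250 bases upstream of Hspa1a and Hspa1b differed at only 3 positions. Hspd1 and Hspe1 face away from each other and share 1 site, chr1:55088053-55088082, read on the minus strand for Hspd1 and on the plus strand for Hspe1. It was found upstream of Hspe1 and of 1 of the 2 annotated Hspd1 starts, and it holds 3 overlapping paired motifs. Either paired motif was present in 12.8% of 32851 promoter windows of this length, and the longer form GAANNTTCNNGAA, searched on both strands, in 0.466%. Hspe1 and Hspd1 have that longer form. Neither Dnajb1 window holds these letters, and a match is a description of sequence, not evidence of binding.

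Across the 16 arrays, the share of spots clearly above background ran from 48.8% to 59.8%, and no spot was saturated. The median coefficient of variation between spots of a probe was 21.1% on Cre replicate 1 without nephritis. On the other arrays it was 9.1% to 11.6%. Levels are log2 intensity after subtracting each array's 75th percentile, so a level compares samples for 1 probe and not genes with each other. All 8 T cell marker genes were well above background on every array. The targeted genes are Ikbkb (IKK2) and Ikbkg (NEMO). Without nephritis Ikbkb was at 3.29 to 3.31 in Cre, at 2.88 to 3.31 in the IKK2 knockout (-0.24, adjusted p = 0.162, limma) and at 2.84 to 3.06 in the NEMO knockout (-0.35, adjusted p = 0.0371). With nephritis it was at 3.18 to 3.45 in Cre, at 2.91 to 3.02 in the IKK2 knockout (-0.34, adjusted p = 0.134) and at 2.78 to 2.86 in the NEMO knockout (-0.48, adjusted p = 0.0065). Ikbkg was 0.68 higher in the IKK2 knockout without nephritis (adjusted p = 0.0015) and differed by -0.10 with it (adjusted p = 0.598). In the NEMO knockout Ikbkg differed by -0.13 (adjusted p = 0.337) without and by -0.34 (adjusted p = 0.0196) with nephritis. These Ikbkg values are of its brighter probe. On its dimmer probe the means without nephritis were -1.65 in Cre, -1.31 in the IKK2 knockout and -1.82 in the NEMO knockout. With nephritis they were -1.58, -1.81 and -1.57, so the fall in the NEMO knockout with nephritis was not seen there. Whether these probes lie in the deleted part of the genes is unknown here, so this does not check the labels. Arrays were spread over 3 slides. The IKK2 knockout and Cre arrays with nephritis were all on slide 1 with IKK2 knockout replicates 1 and 2 without nephritis. Slide 2 held the Cre arrays without nephritis and the remaining IKK2 knockout array without nephritis. Slide 3 held the NEMO knockout arrays and nothing else, so for every comparison of NEMO knockout with Cre, genotype and slide cannot be told apart.

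Hsph1 encodes HSP110, the nucleotide exchange factor and partner of HSP70. On its brighter probe (A_55_P2176963) the level was 2.43, 2.62 and 2.47 in the Cre controls without nephritis and 2.92, 3.0 and 2.77 with it. In the IKK2 knockout it was 3.92, 4.01 and 4.46 without nephritis and 2.95, 2.46 and 2.84 with it. In the NEMO knockout it was 2.69 and 3.48 without nephritis and 3.15 and 3.47 with it. The 3 IKK2 knockout arrays without nephritis stood above all 13 others, while the IKK2 knockout arrays with nephritis lay within the range of the Cre arrays. The second probe (A_55_P2003513) gave 0.92, 0.96 and 0.98, then 1.49, 1.45 and 1.18 in Cre, and 2.30, 2.54 and 2.93, then 1.48, 1.0 and 1.39 in the IKK2 knockout. Both probes ordered the groups alike. By group mean on the brighter probe the order from low to high was Cre without nephritis (2.51 ± 0.10, SD, n = 3), IKK2 knockout with nephritis (2.75 ± 0.26, n = 3), Cre with nephritis (2.90 ± 0.12, n = 3), NEMO knockout without (3.08 ± 0.56, n = 2) and with nephritis (3.31 ± 0.22, n = 2), and IKK2 knockout without nephritis (4.13 ± 0.29, n = 3). Neighbouring groups overlapped at each step of that order except the last. In bulk RNA of this kind, fewer cells of a type and less RNA per cell cannot be told apart.

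**Figure D1:**
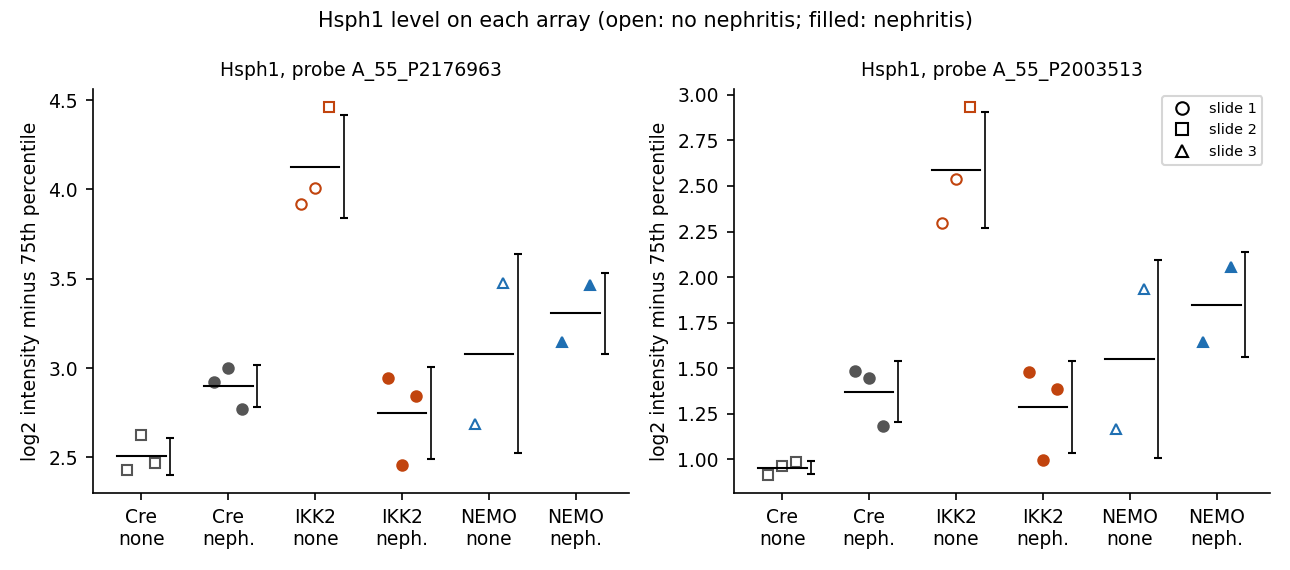
Hsph1 level (log2 intensity minus the array's 75th percentile) on each of the 16 arrays for its probe A_55_P2176963 (left) and its probe A_55_P2003513 (right); open points are arrays without nephritis, filled points with nephritis, the point shape gives the slide, the line is the group mean and the bar 1 SD. The 3 open IKK2 knockout points, between 3.92 and 4.46 on the left, sit above every other array, and the highest of them is the one on slide 2.

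The difference that chose the genes was of this size. With nephritis Hsph1 differed by 0.39 (SE 0.21) in Cre controls and by -1.38 (SE 0.21, 2.60-fold lower) in the IKK2 knockout, a difference between responses of -1.77 (SE 0.29). Since the Cre arrays without nephritis were on another slide than those with it, the same values were also fitted with slide as a block: 0.89 (SE 0.34) in Cre, -1.21 (SE 0.21) in the IKK2 knockout and -2.10 (SE 0.33) between them. On slide 1 alone, with 2 arrays against 3, the IKK2 knockout difference was -1.21 (SE 0.16).

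The means of the other members were lower with nephritis in the IKK2 knockout as well. The groups overlapped for Hspa8 (-0.24, brightest probe), Hspe1 (-0.17) and Hsf1 (-0.11). Dnajb1, the J-domain partner of HSP70, differed by -0.84 (SE 0.17), Hsp90aa1, the stress-inducible cytosolic HSP90, by -0.40 (SE 0.12) and Hspd1 by -0.30 (SE 0.08). Hspa1a differed by -1.46 (SE 0.53) between groups in which only 1 of the 6 arrays was well above background. All 9 genes had a negative difference in the IKK2 knockout (median -0.30, against 0.01 over all genes) and all 9 a positive one in Cre (median 0.13, against 0.10 over all genes). With slide as a block the Cre difference was -0.20 (SE 0.15) for Hsf1 and -0.01 (SE 0.17) for Hspe1, and positive for the rest. The share of all genes with these signs was not counted. By limma with Benjamini-Hochberg adjustment over all genes, 1 of 9 members (Hsph1) was called in the IKK2 knockout response, beside 0.443% of all genes. The count was 0 of 9 in the Cre response, beside 4.03%, and 1 of 9 (Hsph1) in the difference between both responses, beside 1.13%. These contrasts selected the genes, and nothing is read from the counts.

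Without nephritis, several chaperone transcripts were higher in IKK2 knockout than in Cre CD4+ T cells. Of the 8 members other than Hsph1, 4 rose past an adjusted p of 0.05 (limma) and none fell: Dnajb1, Hspa1a, Hsp90aa1 and Hspd1. Hspa1a was well above background on no Cre array and passed the filter on dim probes only through knockout arrays. Its call is therefore not read as a rise. Over all genes tested, 14.6% were called in this comparison, 10% as higher and 4.52% as lower. The median difference over the 9 members was 0.40, against 0.05 over all genes. Hsph1 itself was 1.62 higher (SE 0.21, 3.08-fold, 95% interval 1.17 to 2.07), given as a description. The test of the other members uses the same arrays as the contrasts by which the genes were chosen, so it is not independent of that choice.

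Dnajb1 read 5.73, 5.03 and 5.24 in Cre and 6.26, 6.15 and 6.48 in the IKK2 knockout, all without nephritis. The groups did not overlap, and the difference was 0.96 (SE 0.17, 1.94-fold, adjusted p = 0.0052, limma). Its product stimulates the ATPase of HSP70 and is itself a classical HSF1 target.

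Hsp90aa1 was at 4.59, 4.45 and 4.43 in Cre and at 4.91, 4.97 and 5.26 in the IKK2 knockout. These groups did not overlap either, with a difference of 0.55 (SE 0.12, 1.47-fold, adjusted p = 0.0130, limma). The call was lost with normexp (0.42, adjusted p = 0.0564) and in the deposited matrix (0.40, adjusted p = 0.0735). Hsp90ab1, the constitutive HSP90, read 7.58, 7.52 and 7.37 in Cre and 7.66, 7.62 and 7.82 in the IKK2 knockout; the groups did not overlap, but the difference of 0.21 (SE 0.08) missed the threshold (adjusted p = 0.119). It passed after quantile normalization (0.41, adjusted p = 0.0063) and in the deposited matrix (0.40, adjusted p = 0.0232).

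The genes of the mitochondrial chamber gave unlike calls. Hspd1 (HSP60) was at 4.40, 4.58 and 4.52 in Cre and at 4.86, 4.81 and 5.04 in the IKK2 knockout, 0.40 higher (SE 0.08, 1.32-fold, adjusted p = 0.0078, limma). Hspe1 (HSP10), which shares its upstream region with Hspd1, was at 5.31, 5.23 and 5.06 in Cre and at 5.26, 5.23 and 5.08 in the IKK2 knockout. The Hspe1 groups overlapped fully and the difference was -0.01 (SE 0.10, adjusted p = 0.957), with a 95% interval of -0.22 to 0.20. The difference between both genes' changes was not tested.

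Inducible HSP70, measured here by a probe named for Hspa1a (A_55_P2068459), was near background. The level was -5.47, -6.23 and -6.26 in Cre and -4.46, -4.34 and -2.80 in the IKK2 knockout without nephritis. Only the last of these 6 arrays was well above background. The fitted difference of 2.12 (SE 0.53) had an adjusted p of 0.0223 (limma). Without that array (replicate 3 of the IKK2 knockout group) the difference was 1.58 (SE 0.50, adjusted p = 0.0563), and after normexp background correction it was 0.40 (SE 0.15, adjusted p = 0.111). In the deposited matrix it was 0.59 (adjusted p = 0.118). Leaving out Cre replicate 2 or 3 also ended the call, with adjusted p-values of 0.0696 and 0.0718. Hspa1a and Hspa1b are near-identical copies, so a probe named for one may also bind the transcript of the other.

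Hspa8, which encodes the constitutive HSC70, gave a different size on each of its 3 probes. The brightest probe (A_55_P2080603), which stands for the gene, read 7.93, 8.14 and 8.07 in Cre and 8.13, 8.19 and 8.54 in the IKK2 knockout, a difference of 0.24 (SE 0.11, adjusted p = 0.162). The next probe (A_55_P2069721) read 6.14, 6.32 and 6.29 against 6.95, 6.68 and 7.13, a difference of 0.67 (SE 0.12) with an adjusted p of 0.0072 over all probes. The dimmest (A_52_P12877) read 4.54, 4.34 and 4.40 against 5.56, 5.33 and 5.75, a difference of 1.12 (SE 0.14, adjusted p = 0.0013). The brightest probe overlapped between groups and the other 2 did not, so the probes share a direction and disagree in size. With the mean of the probes in place of the brightest, the gene was 0.68 higher (SE 0.11, adjusted p = 0.0025).

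Hsf1 did not pass the threshold. Its level was 2.78, 2.96 and 2.91 in Cre and 3.27, 3.03 and 2.84 in the IKK2 knockout, overlapping groups with a difference of 0.17 (SE 0.10, adjusted p = 0.289).

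Slide was split unevenly here: the Cre arrays and IKK2 knockout replicate 3 were on slide 2, and IKK2 knockout replicates 1 and 2 on slide 1. With slide as a block the difference between genotypes rests on replicate 3, and it was 1.95 (SE 0.27) for Hsph1, 1.14 for Dnajb1 (adjusted p = 0.0261), 0.77 for Hsp90aa1 (0.0219), 3.18 for Hspa1a (0.0205), 0.49 for Hspa8 (0.0394) and 0.54 for Hspd1 (0.0150). Each of these 6 was larger than without the block, since replicate 3 was the highest IKK2 knockout array without nephritis for each. The larger size is therefore no check on slide, and the Hspa1a call is again not read as a rise. On slide 2 alone, with that 1 array against 3 and assumed to vary like them, the same differences had adjusted p-values of 0.0592 to 0.206 for the 4 members called above. Fitted on the groups compared alone, with fewer samples to estimate the spread, Dnajb1 among those 4 members stayed past the threshold, and Hsp90aa1 (adjusted p = 0.0665), Hspa1a (0.0630) and Hspd1 (0.101) did not.

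**Figure D2:**
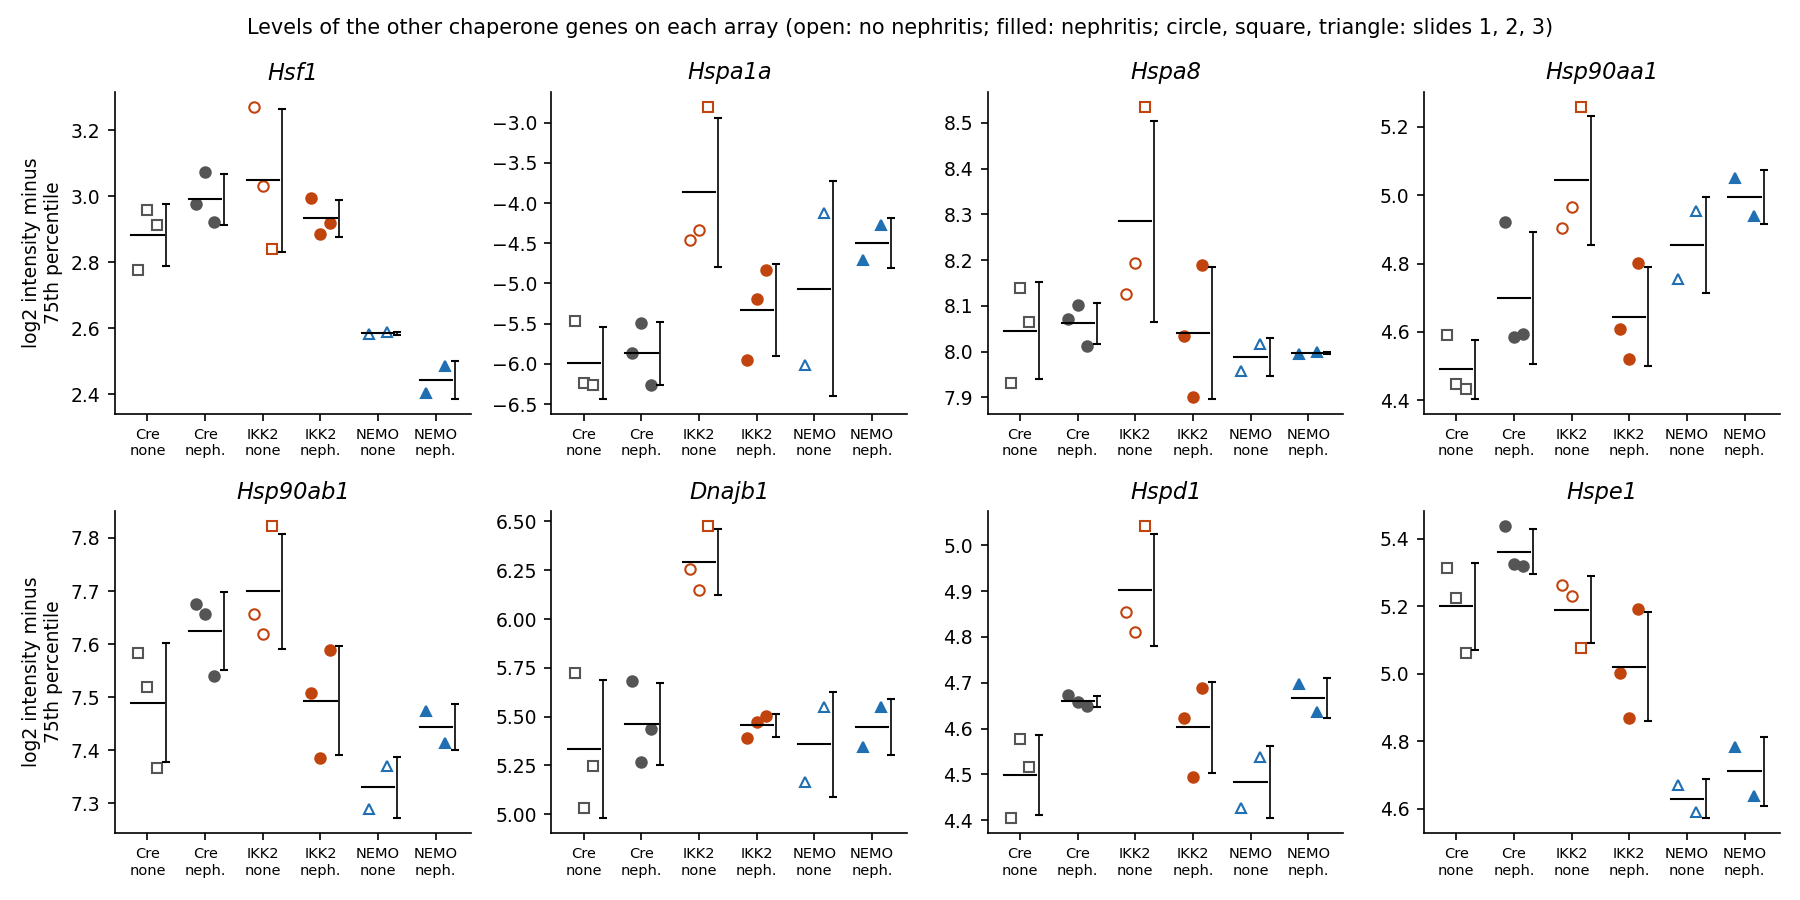
Levels (log2 intensity minus the array's 75th percentile) of the other 8 chaperone genes on each of 16 arrays, by their brightest probe; open points are arrays without nephritis, filled points with nephritis, shapes give the slide, lines are group means and bars 1 SD. The open IKK2 knockout points for Dnajb1, between 6.15 and 6.48, clear all other arrays, while for Hspe1 the NEMO knockout arrays, between 4.59 and 4.78, lie below all others.

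The wider folding machinery was examined through lists of related genes. Of 14 HSP90 relatives and cochaperones, 8 rose in the IKK2 knockout without nephritis and none fell (list median 0.36, against 0.05 over all genes). Under the 4 other scalings (normexp, quantile, the deposited matrix, bright probes) the count was 5 to 9, with none lower. They included Fkbp4 (1.01, SE 0.10), an immunophilin of steroid receptor complexes, Stip1 (0.86, SE 0.09), the HOP protein that bridges HSP70 and HSP90, Chordc1 (0.68, SE 0.11) and Cacybp (0.60, SE 0.10). Of 16 J-domain proteins 3 rose and none fell, led by Dnaja1 (1.12, SE 0.14), a cytosolic partner of HSC70. Over all genes 10% were called higher. Among 10 relatives of HSP70 and HSP110, 3 rose, led by Hspa4l (0.77, SE 0.17), and 1 to 3 under the other scalings. Among 9 HSP70 cochaperones 2 rose, led by St13 (0.54, SE 0.10, but 0.35 with an adjusted p of 0.0917 in the deposited matrix), but with the other scalings 0 or 1 rose, and in the deposited matrix 1 fell. The TRiC and prefoldin list, whose complexes fold actin and tubulin, had 1 of 14 higher (0 to 2 higher and 1 lower under the other scalings), and the mitochondrial protein quality control list 1 of 12. Fkbp4, Cacybp, Hspa4l and St13 were named after their values were seen, and all of these lists were drawn up with earlier results of these data known. Stip1, Chordc1 and Dnaja1 were named because their levels followed Hsph1 most closely over all arrays. Hsph1 was highest on these IKK2 knockout arrays, so the rise of these genes follows from that choice and is a description.

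Cell cycle genes rose in 9 of 12 in the same comparison (list median 1.05). Of 13 immediate early genes 2 rose (1 with normexp), beside 10% of all genes. The mean of the 7 B cell markers, relative to Cre without nephritis, was 2.14 to 2.80 on the IKK2 knockout arrays and -0.18 to 0.27 on the Cre arrays, with 6 of 7 called higher. For the 8 myeloid markers it was 2.70 to 2.77 against -0.39 to 0.76, with 7 of 8 called higher. The B cell genes Pax5 and Blk were not well above background on any Cre array, and the dendritic cell gene Xcr1 on no array. With nephritis the B cell means were 1.70 to 2.14 on the IKK2 knockout arrays and 0.76 to 1.54 on the Cre arrays. The myeloid means were 2.41 to 3.40 and 0.61 to 2.83. For the 3 plasma cell markers the means on the IKK2 knockout arrays were 0.90 to 1.87 without nephritis and -0.30 to 0.51 with it. On the Cre arrays they were -0.51 to 0.43 and 0.22 to 3.92. The part of these cells in the chaperone differences was not tested.

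With nephritis no chaperone gene passed the threshold between IKK2 knockout and Cre. By limma 0 of the 8 members other than Hsph1 were called, beside 2.58% of all genes. An unadjusted p under 0.05 was found for 1 of them, and the share of all genes at that threshold was not counted. The median difference of the 9 members was -0.06, against -0.03 over all genes, and Hsph1 differed by -0.15 (SE 0.21). Dnajb1 read 5.68, 5.27 and 5.44 in Cre and 5.39, 5.47 and 5.50 in the IKK2 knockout, within each other's range, a difference of -0.01 (SE 0.17, 95% interval -0.39 to 0.37). Hspe1 was the exception in its levels, with 5.44, 5.33 and 5.32 in Cre and 5.00, 4.87 and 5.19 in the IKK2 knockout. Those groups did not overlap, but the difference of -0.34 (SE 0.10) had an adjusted p of 0.0965. All arrays of this comparison were on 1 slide. In the HSP90, HSP70, J-domain, HSP70 cochaperone, small heat shock protein, TRiC and mitochondrial lists no gene was called in either direction. In the HSF family and its regulators 1 of 5 fell, Huwe1 (-0.39, SE 0.08, adjusted p = 0.0263), and of 13 immediate early genes 1 rose, Dusp1 (1.02, SE 0.19, adjusted p = 0.0202), both by limma and both named after their values were seen.

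**Figure D3:**
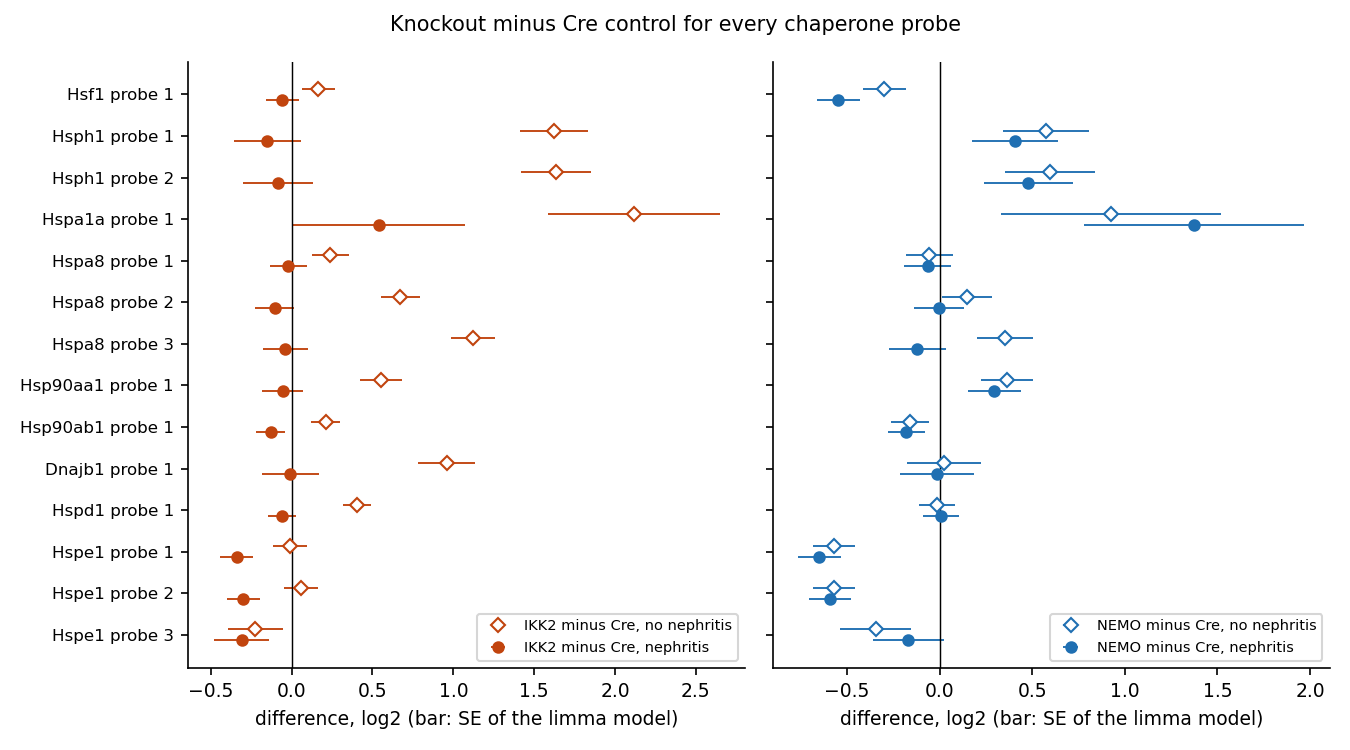
Difference in level between knockout and Cre controls (log2) for each of the 14 chaperone probes, IKK2 knockout on the left and NEMO knockout on the right, with open diamonds for no nephritis, filled circles for nephritis and bars for 1 SE of the limma model. The open diamonds of the IKK2 knockout reach 1.62 and 1.63 for the Hsph1 probes and the filled circles lie at -0.15 and -0.08, whereas in the NEMO knockout both symbols lie close together for most probes.

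The difference with nephritis in the NEMO knockout uses none of the arrays by which the genes were chosen. Its SE, intervals and p-values rest on a spread estimated over all 16 arrays, which include them. Of the 9 members 0 were called by limma, beside 0.402% of all genes. None had an unadjusted p under 0.05, and the share of all genes at that threshold was not counted. The smallest adjusted p was 0.866, for Hspd1, which read 4.43 and 4.54 without nephritis and 4.70 and 4.64 with it, a difference of 0.18 (SE 0.10, 95% interval -0.03 to 0.40). Hsph1 differed by 0.22 (SE 0.25, 95% interval -0.33 to 0.78) and Dnajb1 by 0.09 (SE 0.21, interval -0.38 to 0.56). With 2 arrays a group, the Hsph1 interval spans from a small fall to a rise larger than the one in Cre. The difference of -1.38 in the IKK2 knockout is a value that chose the genes, and no test compared the NEMO and IKK2 knockout responses. The response of the NEMO knockout was also tested against that of Cre, which shares the Cre arrays. In that test 0 of 9 members were called, beside 0.266% of all genes. None had an unadjusted p under 0.05, for which all genes were not counted either. The Hsph1 difference was -0.17 (SE 0.33, adjusted p = 0.843, limma). No gene of the related lists was called in the NEMO knockout response.

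Between NEMO knockout and Cre, 2 chaperone genes fell with and without nephritis, Hspe1 and Hsf1. Without nephritis 2 of 9 members were called lower and none higher, beside 43% of all genes called and 22% called lower. With nephritis it was 2 of 9 lower and none higher, beside 48.4% called and 29.6% lower. These shares of members lie below or near the background.

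Hspe1 read 4.67 and 4.59 in the NEMO knockout without nephritis and 4.78 and 4.64 with it. Each of these was below the 6 Cre arrays, which ranged from 5.06 to 5.44. The differences were -0.57 (SE 0.11, adjusted p = 0.0014) without and -0.65 (SE 0.11, adjusted p = 0.0005) with nephritis, by limma. Its second probe (A_55_P2089358) gave -0.57 and -0.59, both past the threshold over all probes (adjusted p = 0.0022 and 0.0016). The dimmest probe (A_55_P1953063) gave -0.35 and -0.17 and was not (adjusted p = 0.177 and 0.504). Hspd1, the partner of Hspe1, differed by -0.02 (SE 0.09, 95% interval -0.21 to 0.18) and by 0.01 (SE 0.09, interval -0.19 to 0.20).

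Hsf1 was at 2.58 and 2.59 in the NEMO knockout without nephritis and at 2.40 and 2.48 with it, below all Cre arrays (2.78 to 3.07). It was -0.30 (SE 0.11, adjusted p = 0.0467) without and -0.55 (SE 0.11, adjusted p = 0.0017) with nephritis, by limma. The first of these calls was lost, with nearly the same difference, when any of Cre replicates 2 and 3 or NEMO knockout replicates 1 and 2 was left out (adjusted p = 0.119, 0.102, 0.157 and 0.150).

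Hsph1 lay above the Cre arrays of the same treatment on every NEMO knockout array, by 0.57 (SE 0.23, adjusted p = 0.0629) without and 0.41 (SE 0.23, adjusted p = 0.165) with nephritis, and neither passed. Its replicates without nephritis differed from each other by more than the groups did, 2.69 against 3.48, and without replicate 1 the difference was 0.97 (SE 0.23, adjusted p = 0.0105). Hsp90aa1 was 0.36 higher (SE 0.14, adjusted p = 0.0512) without and 0.29 higher (SE 0.14, adjusted p = 0.0971) with nephritis. With nephritis it passed under the other scalings: normexp (0.44, adjusted p = 0.0224), quantile (0.39, 0.0418), the deposited matrix (0.43, 0.0379) and bright probes (0.36, 0.0499). It also passed without Cre replicate 1 (0.41, adjusted p = 0.0326). For Hspa8 and Hsp90ab1 the direction depended on scaling: with nephritis they were -0.06 and -0.18 here, and 0.50 and 0.30 after quantile normalization, with adjusted p-values of 0.0034 and 0.0137.

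The related lists in the NEMO knockout with nephritis are given against 48.4% of all genes called, 29.6% as lower. In mitochondrial protein quality control 7 of 12 genes fell and none rose (median -0.35, against -0.14 over all genes), among them Hspa9 (-0.63, SE 0.12), the mitochondrial HSP70, Dnaja3 (-0.57, SE 0.09), its J-domain partner, and Lonp1 (-0.59, SE 0.12), a matrix protease. Under the other scalings 4 to 6 of the 12 fell. Of the TRiC and prefoldin genes 7 of 14 fell, with Cct4 at -0.53 (SE 0.09), and 1 rose, Pfdn4 at 0.56 (SE 0.13), whereas 3 to 6 fell under the other scalings. The HSP90 list had 2 higher and 2 lower of 14: Fkbp5 (1.0, SE 0.10), a glucocorticoid-induced immunophilin, and Hsp90b1 (0.76, SE 0.11), the HSP90 of the endoplasmic reticulum, rose, and Cdc37 (-0.38, SE 0.11) and Ppid (-0.29, SE 0.08) fell. In the deposited matrix neither fall passed (adjusted p = 0.545 and 0.322). Of 10 HSP70 and HSP110 relatives 4 rose and 2 fell, of 16 J-domain proteins 4 rose and 3 fell, and of 9 HSP70 cochaperones 2 rose and 4 fell. In the HSF family and its regulators 3 of 5 fell, including Hsf2 (-0.46, SE 0.09) and Huwe1 (-0.77, SE 0.09), and Hsf4 rose (0.78, SE 0.23, but 0.06 and not called with normexp). Cell cycle genes rose in 12 of 12, with list means of 2.53 to 2.93 above Cre without nephritis on the 4 NEMO knockout arrays. Of markers of other cells, 5 of 8 myeloid (list median 1.85), 3 of 4 dendritic (2.10) and 3 of 5 CD8 and NK genes were called higher, with 1 of the last called lower, and 3 of 8 T cell markers were called lower. Of 7 B cell markers 1 was called higher (0.53), and 5 without nephritis (2.57). With nephritis, relative to Cre without it, plasma cell means were 2.26 to 4.01 in the NEMO knockout and 0.22 to 3.92 in Cre. Erythroid means were 2.29 to 3.04 and 0.56 to 5.56. The part of the cell cycle genes and of these cells in the chaperone differences was not tested.

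Over the 16 arrays, the genes whose level followed Hsph1 most closely, out of 14647 ranked and with the members set aside, were Dnaja1 (Pearson r = 0.98), Chordc1 (0.95), Ccdc117 (0.95), Stip1 (0.93) and Rbm12 (0.92). Dnaja1, Chordc1 and Stip1 encode a J-domain protein and cochaperones of HSP90. Among the members r was 0.86 for Hspd1, 0.85 for Hspa1a, 0.83 for Hsp90aa1, 0.81 for Dnajb1, 0.70 for Hspa8 and 0.53 for Hsp90ab1, against 0.09 for Hsf1 and -0.07 for Hspe1. The arrays share slides and the scaling, and the 3 IKK2 knockout arrays without nephritis lie apart from the rest. Without those 3 arrays, a choice made after seeing the data, r was 0.95 for Dnaja1 and 0.84 for Chordc1. For Ccdc117 it was 0.82, for Stip1 0.79 and for Rbm12 0.65. Among the members it was 0.77 for Hsp90aa1 and 0.52 for Hspd1, but 0.21 for Dnajb1 and 0.12 for Hspa8. For the other members r was then 0.71 for Hspa1a, -0.03 for Hsp90ab1, -0.48 for Hspe1 and -0.50 for Hsf1. The likeness of Dnajb1, Hspa8 and Hsp90ab1 to Hsph1 thus rested on those arrays, and that of Dnaja1 did not. Dnaja1, Chordc1, Ccdc117, Stip1 and Rbm12 were picked as the genes most like Hsph1, so their r values are selected. Dnaja1 read 6.74, 6.69 and 7.12 in the IKK2 knockout without nephritis and between 5.67 and 6.28 on the other 13 arrays.

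**Figure D4:**
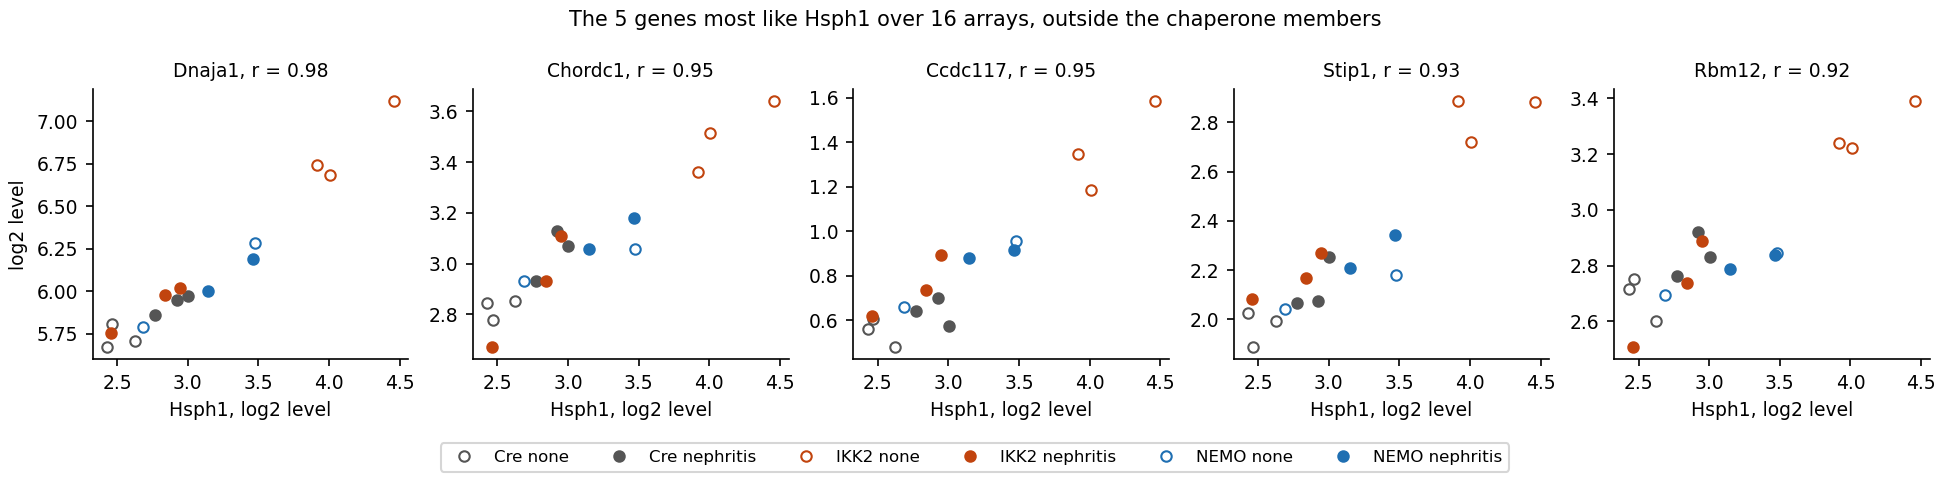
Level of the 5 genes most like Hsph1 (y axis, log2 intensity minus the array's 75th percentile) against the Hsph1 level on the same array (x axis, same scale) for 16 arrays; colours give the genotype, open points no nephritis and filled points nephritis. In each panel the 3 open IKK2 knockout points lie apart at the top right, and in the Dnaja1 panel (r = 0.98) the remaining 13 arrays also follow Hsph1.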

How the data were processed

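The authors deposited Agilent scanner output, in linear spot intensity that was background-subtracted and detrended, per the file headers (Feature Extraction 10.7.3.1, array annotation mm9). The submitters' processing notes give version 10.5. They also deposited a log2 matrix of unstated method, which served as an alternative. Control spots and outliers were left out, spots of a probe averaged, and log2 processed intensity taken minus each array's 75th percentile. Probes were named by accession through RefSeq GRCm38.p6, and 27235 of 55681 had 1 symbol. A probe had to be well above background on at least 2 arrays, and a gene's brightest probe stood for it. All 16 arrays entered 1 model of 6 groups (limma 3.58.1, R 4.3.3), with Benjamini-Hochberg adjustment over all 14675 genes, or 34938 probes for single probes. The number of arrays limits the precision. The code was tested on simulated data. The columns for mean signal were not in the files, so normexp used the median signal.

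The members and lists were chosen with earlier results of these data known. Genes were named by a rule: all members, up to 4 genes of each list with the smallest p among those past the threshold in the NEMO knockout comparisons, and the 5 genes most like Hsph1. Alternatives were normexp background correction, quantile normalization, the deposited matrix, scaling over bright probes, no filter, the mean of a gene's probes, slide or replicate number as a block, fits on the groups compared, and leaving out arrays. Replicate numbers did not pair samples.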

Additional observations from a re-analysis of the deposited data

Results flagged for a closer look

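Several nephritis responses had opposite directions in 2 genotypes on every array, shown as a description. For the Hsph1, Hspa8 and Hspd1 probes named next, every IKK2 knockout array with nephritis lay below every one without. Every Cre array with nephritis lay above every one without. How many of all probes do this was not counted, so nothing is read from their number. The IKK2 knockout response minus the Cre response was -1.77 for the brighter Hsph1 probe (-1.38 against 0.39) and -1.72 for the other (-1.30 against 0.42), the pattern by which the genes were chosen. It was -0.78 for the middle Hspa8 probe (-0.54 against 0.23), -1.16 for the dimmest Hspa8 probe (-0.65 against 0.51) and -0.46 for Hspd1 (-0.30 against 0.16). Against the NEMO knockout, the IKK2 knockout response was opposite for Hspd1, with a difference of -0.48 (-0.30 against 0.18), and for Hsp90ab1, with a difference of -0.32 (-0.21 against 0.11). The differences from the NEMO knockout were not tested. Those from Cre belong to the contrast that chose the genes, so no test of them is given, and the Cre groups lay on different slides.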

How the results depend on the processing

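Counts are of the 9 members past the threshold. Without nephritis, IKK2 knockout minus Cre gave 5 (Hsph1, which chose the genes, included), and 7 with quantile normalization, 6 with the mean of probes, 6 with slide as a block, 3 with normexp, 2 on the groups compared alone, 1 on slide 2 alone and 4 to 5 without an array. NEMO knockout minus Cre without nephritis gave 2, but 4 with quantile normalization and 4 with the deposited matrix, 1 without a filter, 1 on the groups compared alone, and 1 to 3 without an array (1 without Cre replicate 2 or 3 or NEMO knockout replicate 2, 3 without NEMO knockout replicate 1). With nephritis it gave 2, and 6 with quantile normalization, 5 with the deposited matrix and 2 to 3 without an array (3 without Cre replicate 1). Hspa8 and Hsp90ab1 reversed there and were called higher: with quantile normalization Hspa8 was 0.54 without and 0.50 with nephritis and Hsp90ab1 0.37 and 0.30, and in the deposited matrix Hspa8 was 0.61 and 0.49 and Hsp90ab1 0.32 and 0.33. The cause was not tested. The next counts are of contrasts that chose the genes and say nothing of stability. The IKK2 knockout response gave 1, and 2 with normexp, quantile normalization or the deposited matrix, 0 on the groups compared alone or slide 1 alone, and 0 to 1 without an array (0 without replicate 2 or 3 with nephritis). The IKK2 knockout minus Cre response gave 1, 2 with the mean of probes, 0 without a filter, 0 without both Cre arrays that stood apart (with nephritis replicate 2, without it replicate 1), and 0 to 1 without an array (0 without Cre replicate 2 or 3 or IKK2 knockout replicate 2 or 3 with nephritis, or Cre replicate 1 or 3 or IKK2 knockout replicate 2 without). With replicate number as a block it gave 0. The numbers did not pair the samples: of 36 same-numbered pairs 3 correlated above 0.1 (-0.20 to 0.13). Of 812 tested member differences under alternatives, 675 kept their direction and side of the threshold, 20 lost it, 15 gained it, 8 reversed past it (given above), and 94 changed sign with no call on either side. Dim signal limits Hspa1a, slide 3 every NEMO comparison, and 2 arrays a group the NEMO response.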
